A study of Drosophila melanogaster with 2 samples.

Results

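Binding of the architectural protein ZIPIC was examined at the genes for the vacuolar ATPase (V-ATPase) of Drosophila melanogaster. The members were all protein-coding genes whose Ensembl symbol begins with Vha, which gave 33 genes of the 13968 protein-coding genes annotated on the chromosome arms. For each subunit the gene known for broad use was counted as the main gene, which gave 14 main genes, and the remaining 19 genes were counted as further paralogues of the same subunits. These classes came from general knowledge of the family and not from expression values, and a paralogue is not thereby shown to be restricted in embryos.

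The V-ATPase is a rotary proton pump that acidifies lysosomes, endosomes and secretory vesicles, and energises epithelia such as the insect renal tubule. Its V1 sector lies in the cytosol and hydrolyses ATP, its V0 sector lies in the membrane and carries the protons, and accessory proteins help its assembly and sorting. In flies many subunits are encoded by several paralogues, of which one is used in most tissues and others are known for restricted use, often in the testis. The lysosomal pump also takes part in the activation of the growth kinase complex TORC1, and the MiT/TFE factor Mitf is known to bind and activate V-ATPase genes.

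ChIP-seq had been performed on whole embryos of both sexes aged 0 to 24 h from a transgenic line that stably expressed ZIPIC (CG7928) with GFP at its C terminus, with precipitation by an antibody against GFP per the description. Another label field names CG7928 as the antibody, and which one applies was not settled here. The 2 samples, biological replicates numbered 2 and 3 in the labels, formed 1 group, so that no condition could be compared with another, and no untagged embryos were analysed here. Whole embryos mix tissues, so that binding in few cells and weak binding in many cannot be told apart. The deposited dm6 lists held 30000 candidate entries for each replicate and for the pooled replicates, and 2971 optimal peaks, which are the 2971 strongest pooled candidates.

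A gene was called bound when the summit of an optimal peak lay within 500 bp of one of its annotated starts. The strength of an entry is the authors' signal value, a score without a stated scale, and the pooled and the replicate lists each have their own scale, so that ranks are given beside the values. Rank 1 is the strongest entry of a list. Read counts are not part of these lists, so depth is unknown and a single score has no error. No test between groups of genes was made, because genes are not replicates of a condition, and counts are set beside the share over all protein-coding genes.

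ZIPIC peaks lay at 10 of the 33 V-ATPase genes (30.3%), where 18.3% of all protein-coding genes were bound. Of the main subunit genes 7 of 14 were bound (50%), and of the further paralogues 3 of 19 (15.8%). The bound main genes were Vha55, Vha44, Vha36-1 and Vha26 of the V1 sector and Vha100-2, Vha16-1 and VhaM9.7-b of the V0 sector. The bound paralogues were Vha68-1, Vha16-5 and VhaM9.7-a.

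The 2 replicates gave different counts. Among the 2971 strongest entries of replicate 2, entries lay at 3 of 14 main genes and 1 of 19 paralogues, where the share of all protein-coding genes was 13.7%. Among the 2971 strongest entries of replicate 3 they lay at 8 of 14 main genes and 3 of 19 paralogues, with 20.1% of all genes. The main genes' share was 39.3% ± 25.3 (SD, n = 2) and that of the paralogues 10.5% ± 7.44 (SD, n = 2), beside 16.9% ± 4.56 (SD, n = 2) of all genes. The main genes' share was 21.4% in replicate 2 and 57.1% in replicate 3, and the paralogues' 5.26% and 15.8%. Over all 33 members the share was 12.1% in replicate 2, below that of all genes, and 33.3% in replicate 3, above it. The values of the classes did not overlap, but the replicates differed within the main genes by more than the classes did within replicate 2.

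**Figure D1:**
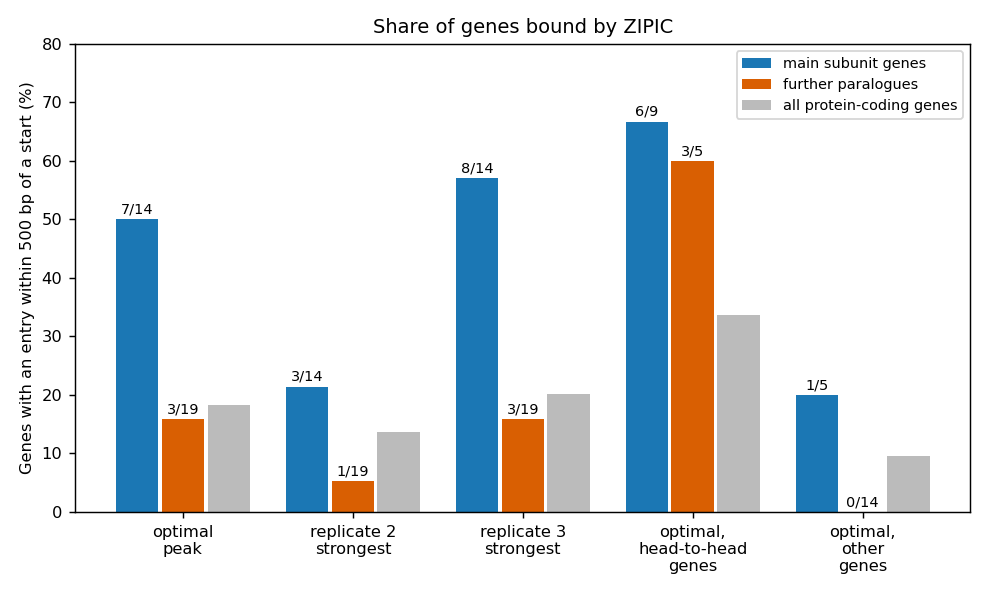
Bars give the percentage of main subunit genes (blue), further paralogues (orange) and all protein-coding genes (grey) with an entry within 500 bp of a start, in the optimal list, in each replicate's strongest entries, and for genes at head-to-head promoters and elsewhere, with counts above the bars. Main genes stood at 7 of 14 in the optimal list and paralogues at 3 of 19, but 6 of 9 and 3 of 5 among genes at head-to-head promoters.

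Most of the bound members had signal values below the median of all bound genes. The median pooled signal over the 10 strongest peaks was 180, against 249 over the 2561 bound protein-coding genes. A pair of genes stood far above the rest, Vha26 and Vha68-1, followed by Vha100-2 and Vha55. The remaining 6 lay between 150 and 196, not far above the weakest optimal peak at 126.

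Vha26, which encodes subunit E of the peripheral stalk in V1, had the strongest peak of the family (chr3R:5591311-5591812, dm6). Its pooled signal was 2099 (rank 119), with 1193 in replicate 2 (rank 100) and 907 in replicate 3 (rank 157). Both replicates thus placed it near the top of their lists, with summits within 11 bp of the pooled one. The summit was intergenic, 246 bp upstream of Vha26 and 58 bp from the start of noi, a splicing factor gene transcribed the other way, and the peak is shared by both genes.

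Vha68-1 is a second gene for the catalytic subunit A and was the strongest of the paralogues (chr2L:13004002-13004458). Its pooled signal was 1290 (rank 288), with 781 in replicate 2 (rank 239) and 509 in replicate 3 (rank 353). The intergenic summit lay 76 bp upstream of Vha68-1. On its other side, 297 bp away, is the start of mTor, the kinase of TORC1, so that a V-ATPase gene and the kinase gene share this promoter region and its peak. The main gene for the same subunit, Vha68-2, had no optimal peak. Its strongest pooled candidate had a signal of 97.3 (rank 4335), with 40.9 in replicate 2 (rank 6067) and 72.5 in replicate 3 (rank 2947). Vha68-2 has 5 annotated starts. The replicate 2 summit lay 423 bp upstream of its nearest start, and the replicate 3 summit 195 bp downstream of a different start. Vha68-3, which follows Vha68-2 after 178 bp on the same strand, had only weak candidates, with a pooled signal of 39.8.

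Vha100-2 encodes the main form of subunit a, which forms the proton path with the c ring. Its peak (chr3R:18397112-18397300) had a pooled signal of 340 (rank 852), with 183 in replicate 2 (rank 790) and 167 in replicate 3 (rank 857). This peak did not lie at the most upstream start of the gene but 275 bp upstream of a downstream start. There the start of Vti1b, a SNARE gene of the endosomal system, lies 67 bp away within the Vha100-2 gene, and the summit was in the 5′ UTR of Vti1b. Vha100-1, the form known from neurons, had a candidate of 112 (rank 3509) outside the optimal list, with 38.5 in replicate 3 and no entry in replicate 2. Vha100-4, which lies 517 bp downstream of Vha100-2 on the same strand, and Vha100-3 had no entry in any list, and Vha100-5 had a pooled candidate of 46.3.

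Vha55 encodes the nucleotide-binding subunit B of V1. Its peak (chr3R:12627765-12627927) had a pooled signal of 253 (rank 1179), with 106 in replicate 2 (rank 1333) and 145 in replicate 3 (rank 1002). The intergenic summit was 21 bp upstream of Vha55 and 181 bp from the start of Snx3, a sorting nexin gene, which faces the other way.

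**Figure D2:**
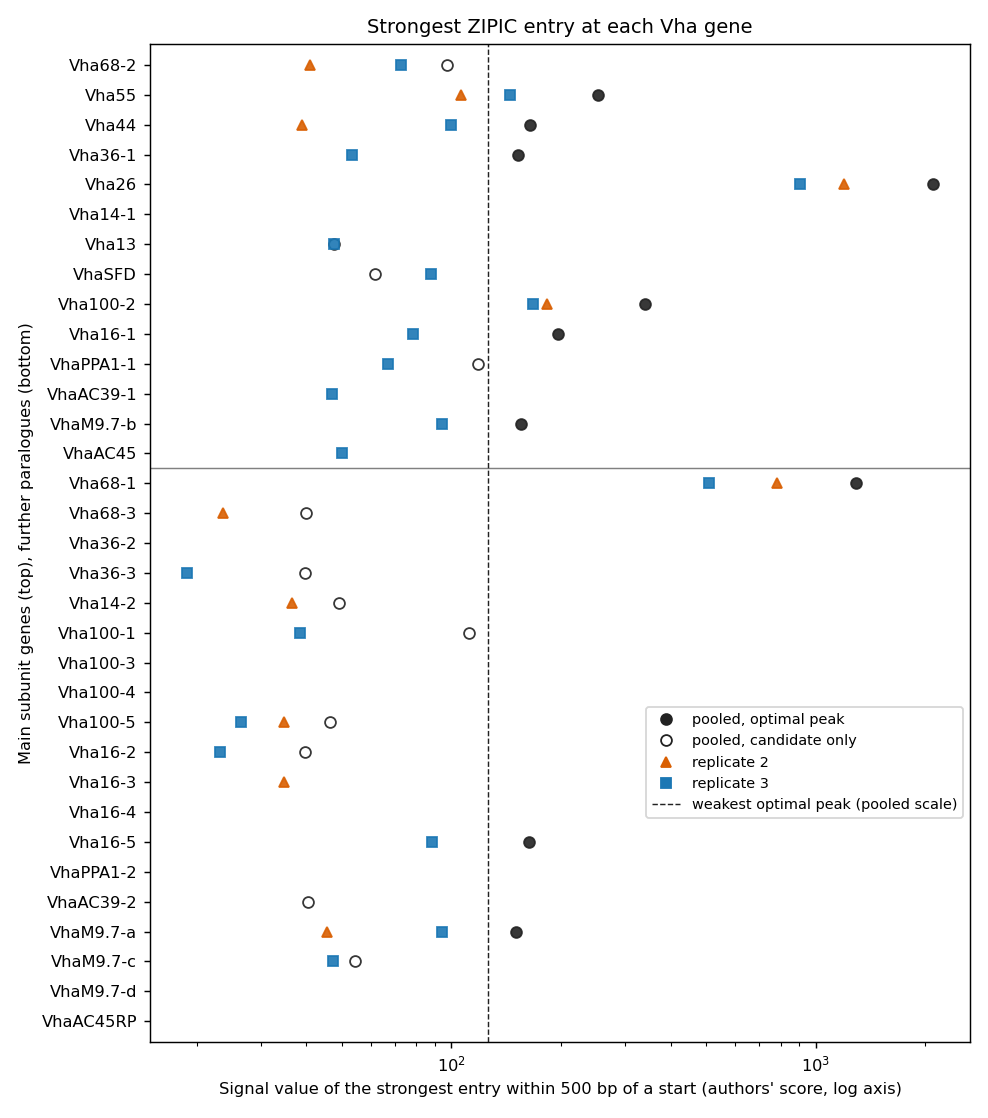
Each row is a Vha gene, with the authors' signal value (log axis) of the strongest entry within 500 bp of a start in the pooled list (circles, filled for an optimal peak), replicate 2 (triangles) and replicate 3 (squares), and a dashed line at the weakest optimal peak on the pooled scale, 126. Vha26 and Vha68-1 stand apart at 2099 and 1290, and 8 genes have no entry.

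The summit sequences of the bound genes differed in the strings they held, and the windows with and without the ZIPIC core are shown for that reason. They are the intergenic bases of the 100 bp around 6 of the summits, on the strand of the V-ATPase gene and read from the Release 6 genome; capitals mark matches to the 8 strings searched on both strands.
Vha26, chr3R:5591467-5591566: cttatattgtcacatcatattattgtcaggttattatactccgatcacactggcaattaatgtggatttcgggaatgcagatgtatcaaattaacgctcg
Vha68-1, chr2L:13004133-13004232: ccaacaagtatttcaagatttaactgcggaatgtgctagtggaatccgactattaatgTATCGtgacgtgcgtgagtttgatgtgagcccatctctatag
Vha55, chr3R:12627830-12627899: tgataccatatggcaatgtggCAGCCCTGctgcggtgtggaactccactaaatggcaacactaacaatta
Vha16-5, chr2L:10737271-10737344: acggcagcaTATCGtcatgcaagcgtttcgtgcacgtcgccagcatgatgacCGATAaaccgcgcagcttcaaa
VhaM9.7-b, chr3L:21539722-21539821: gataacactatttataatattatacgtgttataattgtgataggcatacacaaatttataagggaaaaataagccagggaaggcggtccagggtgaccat
VhaM9.7-a, chr3L:4262471-4262555: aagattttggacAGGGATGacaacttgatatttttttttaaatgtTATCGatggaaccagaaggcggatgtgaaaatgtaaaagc

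The ZIPIC core CAGGGCTG occurred at 1 of the 10 member summits, that of Vha55, where it reads CAGCCCTG on the strand shown. It occurred at 9.4% of the 2032 optimal promoter peaks. Its short form AGGGNTG, which every core contains, occurred at Vha55 and VhaM9.7-a, and at 21.4% of promoter peaks. The BEAF-32 string CGATA, shown as TATCG on the other strand, occurred at Vha68-1, Vha36-1, Vha16-5 and VhaM9.7-a, and at 28.4% of promoter peaks. The strings of DREF (TATCGATA), M1BP (GGTCACACT) and the E-box (CACGTG) were in none of the 10 windows, and every TATCGATA also counts as CGATA. These strings occurred at 5.66%, 2.02% and 1.03% of promoter peaks.

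The strongest pair of member peaks lacked the core. Over both strands, the nearest match to CAGGGCTG had 3 mismatches in the windows of Vha26 and of Vha68-1. Of the 267 promoter peaks at least as strong as that of Vha68-1, 45.7% held the core and 81.3% held it with at most 1 mismatch. Over all 10 members 2 windows held it with at most 1 mismatch, those of Vha55 and VhaM9.7-a, where 25% of all promoter peaks did. A missing string says only that these letters are not in the window.

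Vha16-1 encodes the main form of the proteolipid c, which forms the rotating ring. Its peak (chr2R:6633051-6633460) had a pooled signal of 196 (rank 1597), with 78.5 in replicate 3 (rank 2575) and no entry in replicate 2. It was the only bound member without another coding start within 500 bp of the summit, which lay 166 bp upstream. Among the other genes for subunit c, Vha16-5 was bound (chr2L:10737116-10737525) with a pooled signal of 163 (rank 2055), 88.3 in replicate 3 and no entry in replicate 2, but its summit was 278 bp from its own start and 24 bp from that of CG12299. Vha16-2 had a weak pooled candidate (39.7), Vha16-3 an entry in replicate 2 only (34.6), and Vha16-4 none.

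Vha44, the gene for the regulatory subunit C that links V1 to V0, had a peak (chr2R:16336535-16336944) with a pooled signal of 164 (rank 2048), with 39 in replicate 2 (rank 6948) and 100 in replicate 3 (rank 1711). Its summit was 103 bp upstream of Vha44 but 20 bp from the start of Hmgs, the HMG-CoA synthase gene of the mevalonate pathway, and it lay in the 5′ UTR of another Hmgs transcript that starts inside Vha44. Vha36-1, for subunit D of the central shaft, had a peak (chr2R:15541217-15541626) with a pooled signal of 152 (rank 2277), 53.5 in replicate 3 (rank 4985) and no entry in replicate 2. Its intergenic summit lay between Vha36-1 (13 bp) and CG8187 (59 bp). The other subunit D genes were unbound, Vha36-2 without an entry and Vha36-3 with a pooled candidate of 39.6.

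For subunit e, a small membrane protein of V0, a main gene and a paralogue were both bound, as for subunit c. VhaM9.7-b had a peak (chr3L:21539567-21539976) with a pooled signal of 155 (rank 2204) and no entry in replicate 2. In replicate 3 an entry of 75.3 (rank 2759) held the summit, while the strongest entry near the gene, 94 (rank 1895), lay 277 bp away and nearer to COX8, a gene for a cytochrome c oxidase subunit. VhaM9.7-a had a peak (chr3L:4262301-4262710) with a pooled signal of 150 (rank 2333), with 45.4 in replicate 2 (rank 4660) and 94 in replicate 3 (rank 1894). Its summit was 199 bp from its own start and 36 bp from that of CG11586. VhaM9.7-c had a pooled candidate of 54.5 and VhaM9.7-d none.

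Candidates below the optimal list lay at most of the unbound main genes. VhaPPA1-1, for the c″ proteolipid, had a pooled candidate of 118 (rank 3295) and 66.9 in replicate 3, which made it the unbound member nearest to the optimal list. VhaSFD, for the regulatory subunit H, had 61.8 in the pooled list (rank 8972) but 87.8 in replicate 3 (rank 2144), and Vha13, for subunit G of the stalk, had 47.6 and 47.5. VhaAC39-1, for subunit d, and VhaAC45, for an accessory protein, had entries in replicate 3 only, of 47.1 and 50. Vha14-1, for subunit F, had no entry, and the nearest optimal peak, 862 bp from its start, was nearest to Gmppa.

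Candidates of any strength were listed more often at main genes in replicate 3 than in replicate 2. Replicate 3 held a candidate at 13 of 14 main genes and 8 of 19 paralogues, where 56.4% of all genes had one. Replicate 2 held one at 5 of 14 and 6 of 19, with 31.7% of all genes. In the pooled list it was 11 of 14 and 11 of 19, with 50.7% of all genes. Of the 22 members with a pooled candidate 10 were bound, and of all genes with one 36.2% were. The paralogues' pooled candidates had a median signal of 49, the main genes' 155 and all genes' 90.5.

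No entry in any of the 4 lists was found at 8 members, 1 main gene and 7 paralogues, where 32.9% of all protein-coding genes had none. The paralogues were Vha36-2, Vha100-3, Vha100-4, Vha16-4, VhaPPA1-2, VhaM9.7-d and VhaAC45RP. VhaAC39-2 and Vha14-2, the other genes for subunits d and F, had weak pooled candidates of 40.4 and 49.

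Among the bound members, the 4 strongest were the ones found in both replicates. The pooled list is derived from both replicates, so a high pooled signal and a place in both lists are not independent. The optimal summits of Vha26, Vha68-1, Vha100-2 and Vha55 were each held by one of the 2971 top entries in replicate 2 and in replicate 3 (4 of 33 genes, where 10.9% of all protein-coding genes had such a peak). Of the 10 bound members, 9 were found in replicate 3, all but Vha36-1, and 4 in replicate 2. Among all bound protein-coding genes 88.5% were found in replicate 3, 66.6% in replicate 2 and 59.2% in both. At the 10 member peaks replicate 2 listed an entry of any strength at 6, and over all bound genes at 72.2%. A missing entry in replicate 2 was not limited to weak peaks. No replicate 2 entry held the summit at ana2, for example, where the pooled signal was 2757 and that of replicate 3 was 1365. Such a gap in the replicate 2 list is thus not a measure of weak or absent binding.

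The same 4 peaks also differed from the rest in their listed width. The other 6 had a width of exactly 410 bp, the commonest width in the optimal list (58.3% of peaks), each with the summit within 1 bp of the centre. The 4 had widths of 502, 457, 189 and 163 bp. The usual width depended on the list, with medians of 410 bp in the optimal and pooled lists, 400 bp in replicate 2 and 424 bp in replicate 3. The entry of Vha55, 163 bp wide in the optimal list, was 400 bp wide in replicate 2. A listed width is thus not shown to be a property of the binding site. Over all bound genes, 33.4% of the 410 bp peaks and 89.1% of the others were found in both replicates.

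**Figure D3:**
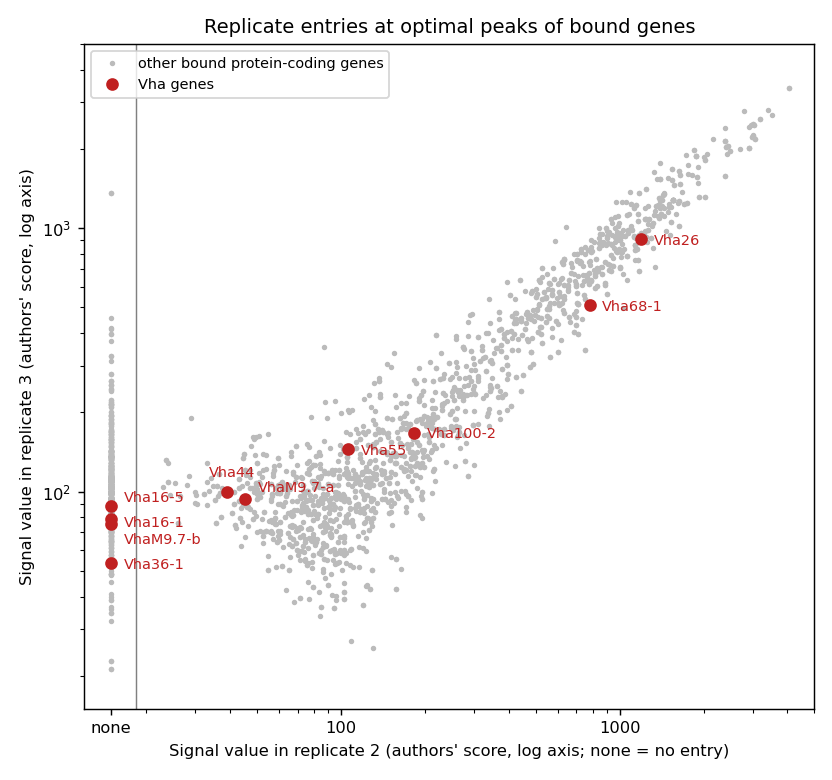
Each point is a bound protein-coding gene with the signal values (authors' score, log axes) of the entries that hold its strongest optimal summit in replicate 2 and replicate 3, genes without an entry in replicate 2 stand left of the line, and genes without one in replicate 3 are not drawn. Vha26 and Vha68-1 lie high in both replicates, and 4 of the 10 Vha genes lie left of the line.

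At 9 of the 10 bound members another coding start lay within 500 bp of the summit, as at 61% of all bound protein-coding genes. A gene was counted as head-to-head when one of its starts lay within 1000 bp of the start of another coding gene on the other strand, with the genes pointing apart. This held for 14 of 33 members (42.4%), 9 of 14 main genes and 5 of 19 paralogues, and for 36.2% of all protein-coding genes. Of the 14 head-to-head members 9 were bound (64.3%), where 33.7% of all head-to-head genes were. Of the 19 other members 1 was bound, Vha16-1, where 9.61% of such genes were.

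Within head-to-head members, 6 of 9 main genes and 3 of 5 paralogues were bound, and elsewhere 1 of 5 and 0 of 14. The arrangement therefore moved together with the class, and its part in the difference between main genes and paralogues was not tested. The facing genes of the bound members were noi, mTor, Vti1b, Snx3, Hmgs, CG12299, COX8, CG8187 and CG11586. The unbound head-to-head members were Vha14-1 with CG30091, Vha13 with Nup58, VhaAC45 with Gnptab, Vha100-1 with dgt6 and Vha36-3 with AANATL7, with starts 221 to 640 bp apart.

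At 5 of the 10 bound members the start of the facing gene was nearer to the summit than the member's own, namely Vha44, Vha26, Vha100-2, Vha16-5 and VhaM9.7-a. Among all bound protein-coding genes the own start was nearest for 67.5%. All 10 summits lay upstream of the member's nearest start, at 13 to 278 bp with a median of 134 bp, and 89.2% of the summits of all bound genes lay upstream, with a median distance of 118 bp. The lists do not assign a peak to one of the facing genes. Counted only for the gene with the nearest start, 4 main genes and 1 paralogue were bound, and 12.9% of all genes.

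**Figure D4:**
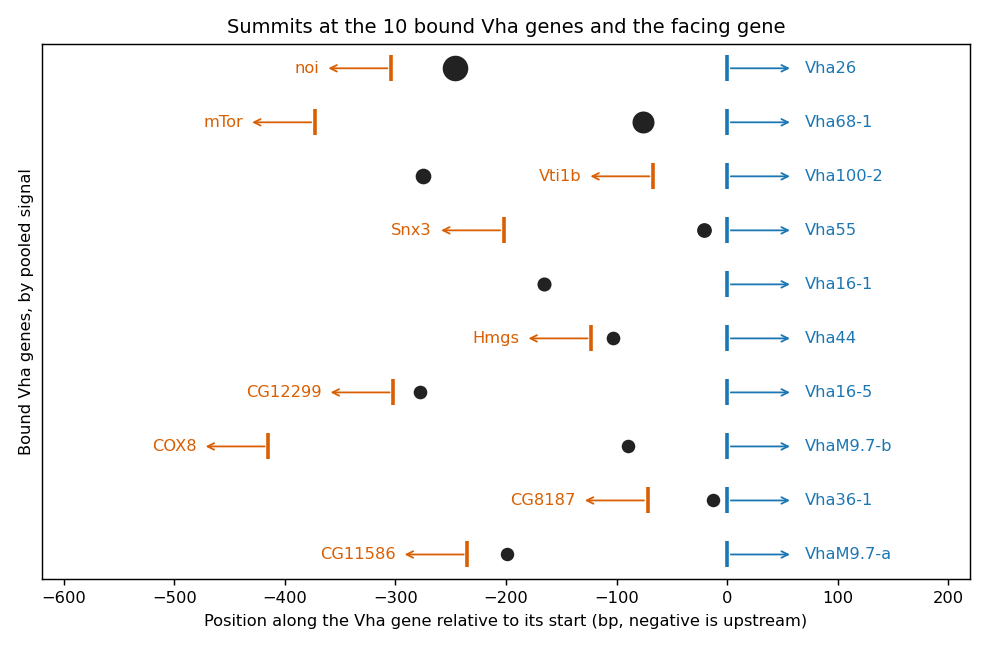
The 10 bound Vha genes are drawn from the strongest pooled signal down, with the nearest Vha start at 0 bp (blue), the start of the facing gene (orange) and the summit of the optimal peak (black, larger for a higher signal), upstream positions being negative. Summits lay 13 to 278 bp upstream, that of Vha100-2 beyond the start of Vti1b, and Vha16-1 has no facing gene.

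Some genes of the same subunit lie side by side, and the distances given here are gaps between the genes, not between their starts. The genes of each pair lie on the same strand, so their starts are farther apart than the gap. A shared peak would need a summit within 500 bp of a start of both genes, so the lack of one says little. Vha68-2 and Vha68-3 (178 bp apart), Vha16-3 and Vha16-2 (985 bp) and VhaPPA1-2 and VhaPPA1-1 (2052 bp, with 1 coding gene between) had no optimal peak at any start. Of Vha100-4 and Vha100-2 only Vha100-2 was bound.

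Strings of MiT/TFE factors, the class of Mitf, were searched in the promoters, taken as 250 bp before and 50 bp from the most upstream start. The M-box TCATGTGA occurred in 4 of 33 members, against 0.523% of 13968 promoters. All 4 were main genes, namely Vha14-1, VhaPPA1-1, VhaM9.7-b and VhaAC45, and 1 of them, VhaM9.7-b, was bound. The E-box form TCACGTGA, which also counts as CACGTG, occurred in Vha44 alone, 48 bp upstream of its start, and in 0.172% of promoters. These strings lay in none of the 100 bp summit windows. In 200 bp summit windows TCATGTGA lay at Vha55, a bound main gene outside these 4, and at 0.492% of promoter peaks. The count of 4 thus depends on the stretch searched. The M-box of VhaPPA1-1 begins 34 bp and that of VhaM9.7-b 22 bp downstream of the start; both sites are shown with 10 bases on each side and the M-box in capitals.
VhaPPA1-1, chr3R:14904010-14904037: aaaatgtacgTCATGTGAttgtggattc
VhaM9.7-b, chr3L:21539874-21539901: gacatgtccgTCATGTGAtattcgttgc

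Of the other strings, CGATA occurred in 19 of 33 members (11 of 14 main genes and 8 of 19 paralogues) and in 47.3% of promoters. TATCGATA occurred in Vha55 and VhaSFD, against 9.36% of promoters, and CACGTG in Vha44, VhaM9.7-d and VhaAC45RP, against 4.2%. GGTCACACT occurred in Vha68-2, Vha26 and Vha100-1, against 6.04%, and in the last 2 it began 2 bp before the start.

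Of 15 genes that assemble or regulate the pump or signal with it at the lysosome, 4 were bound, beside 18.3% of all protein-coding genes. This list too was chosen with earlier results known. Lamtor3, a subunit of the Ragulator complex that anchors TORC1 signalling at the lysosome, had a pooled signal of 682 (rank 490), with 399 in replicate 2 and 280 in replicate 3. mTor shares the peak of Vha68-1, and mtd, a gene of the TLDc family related to V-ATPase regulators, had 302 (rank 957), with 180 and 110. CG5969, which encodes the relative of the yeast assembly factor VMA21, had 169 (rank 1960), with 86.4 and 70.4, and its summit was nearest to CG32428.

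The other 11 were unbound, among them Mitf, raptor, the Rag GTPase genes RagA-B and RagC-D, 4 Ragulator genes, Rbcn-3A, Rbcn-3B and ATP6AP2. ATP6AP2, the accessory protein formerly named VhaM8.9, had a pooled candidate of 125 at rank 2994, just outside the 2971 optimal peaks. In replicate 2 no entry lay at any of these 11 genes, where 31.7% of all protein-coding genes had one. In replicate 3 each of the 11 had an entry, where 56.4% of all genes had one. Those of Lamtor4 (86.7, rank 2191) and ATP6AP2 (74.3, rank 2811) were among the 2971 strongest of replicate 3.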

How the data were processed

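ChIP-seq of GFP-tagged ZIPIC was available for 2 embryo samples in 1 group. The authors deposited candidate lists per replicate and pooled, and optimal peaks selected by irreproducible discovery rate, on dm6 and dm3, per the deposited file descriptions; the dm3 lists were not used. Each deposited entry carries a signal value (a score of unstated scale), a −log10 q-value, not used for ranking, and a summit offset in bases. Candidates were called against a control alignment, per the deposited file descriptions. No caller or aligner is named in the sources used here, and depth is unknown.

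Entries were placed on Ensembl release 115 (BDGP 6.54) and Release 6 sequence, whose arm lengths hold every dm6 entry, with Python 3.11.15. For each gene the strongest entry with its summit within 500 bp of any start was taken, and an optimal peak counted as found in a replicate if its summit fell inside one of the 2971 strongest entries there. Motif strings were searched in 100 bp windows. Every member was named, with each neighbouring start within 500 bp. The counting was tested on simulated data. The members, classes, strings and gene lists were chosen with earlier results of these data known. Alternatives were other windows, the stronger part of the peaks, single replicates, overlap rules and start choices.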

Additional observations from a re-analysis of the deposited data

How the results depend on the processing

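With only the stronger part of the optimal peaks, 4 members were bound (3 main genes and 1 paralogue), against 10 (7 and 3). These 4 are 12.1% of the members, beside 10.8% of all genes, a smaller difference than 30.3% beside 18.3%. In replicate 2 alone the members' 12.1% was below the 13.7% of all genes. The single replicates' strongest entries gave 4 to 11 members, 3 to 8 main genes and 1 to 3 paralogues, and 4 to 8 bound head-to-head members. Assignment to the nearest start alone, chosen after seeing the data, gave 5 members, 4 main genes and 1 paralogue. With head-to-head starts at most 300 bp apart, 6 members counted instead of 14, and 5 of them were bound instead of 9. For the head-to-head counts in single replicates and at 300 bp, the share of all protein-coding genes was not counted. These counts therefore cannot be set against a general rate. Any candidate was listed at 11 to 21 members in single replicates, against 22 in the pooled list. In 50 bp windows CAGGGCTG was at 0 and AGGGNTG at 1 summit. In 200 bp windows CACGTG was at 2 (Vha55 and Vha44), TCACGTGA at 1 (Vha44) and TCATGTGA at 1 (Vha55). The main genes' share stayed above the paralogues' under each of the 8 alternatives tried for the bound counts. These alternatives reuse the same 2 samples and are not independent. The stronger part of the peaks and replicate 2 alone gave the same 4 members. A split by head-to-head arrangement was not among the 8, and there 6 of 9 main genes and 3 of 5 paralogues were bound. Other alternatives moved counts by at most 1.5 times. No paired analysis was possible because there was 1 group. Depth, a control without the tag and the scale of the score limit every value.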
